A study of Mus musculus with 9 samples.

Results

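The pre-ribosome assembly and processing factors are the proteins that fold, cut, modify and carry the immature ribosomal subunits but do not stay in the finished ribosome. A named list of 57 such mouse genes was followed here. A gene was measured where the array had a probe set, a group of probes read as 1 value, whose platform annotation gave that gene as its only symbol. By this rule 50 of the 57 genes were measured, on 84 probe sets, out of 12393 genes and 22626 probe sets in all. Utp15, Wdr3, Utp14a, Nat10, Nob1 and Gnl3l had no probe set with a single symbol, and Mrto4 was listed only on a probe set that names several genes. The rule used no measured value, but the list was drawn up with earlier results of these data known.

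Total RNA of N1E-115, a mouse neuroblastoma cell line of sympathetic nervous origin, was read on 9 arrays. The labels gave the state of mouse Tcof1 and, within each state, an array A, B and C. There were 3 arrays of cells overexpressing Tcof1, 3 of cells with Tcof1 knocked down and 3 of cells with wildtype Tcof1, all in the same line. The sources used here do not give the means by which Tcof1 was raised or lowered, whether the altered cells were single clones, or whether A, B and C were grown as separate cultures. All p-values thus rest on the spread between arrays of a group, and that spread may be technical. The source label of wildtype array A spells the line N1-115, while its description gives N1E-115.

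Ribosomes are assembled around a long precursor RNA that RNA polymerase I makes in the nucleolus. The factors of the small subunit processome, among them the UTP-A and UTP-B modules and the Mpp10 module, gather on the growing transcript around the U3 small nucleolar RNA, and a separate set of proteins, including the PeBoW complex of Pes1, Bop1 and Wdr12, builds the large subunit. Export factors then carry both precursors to the cytoplasm for the last cuts. Treacle, the product of Tcof1, works in the nucleolus in both the synthesis and the modification of this precursor RNA, and its loss underlies Treacher Collins syndrome, a disorder of facial development.

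The deposited values were linear intensities in array units, with array medians between 164.1 and 185.95 and within-group correlations of log2 values between 0.973 and 0.978. Fold changes are differences of log2(intensity + 16) with their SE from limma fitted to all 9 arrays, on a scale that understates the change of dim probe sets. A gene was called where its p-value, adjusted over all 22626 probe sets within a comparison, was under 0.05, and the brightest probe set stands for a gene unless another is named. Tcof1 itself, on the probe set with the largest change, had 386, 232 and 264 in overexpressing arrays, 135, 112 and 133 in knockdown arrays and 143, 156 and 149.8 in wildtype arrays. On this probe set the 3 groups did not overlap, while on the other 2 Tcof1 probe sets knockdown and wildtype arrays did. Overexpressed over wildtype it rose by 0.87 ± 0.21 (adjusted p = 0.0241), and knockdown over wildtype it gave -0.22 ± 0.21 (adjusted p = 0.745), so a reduction of the knockdown target was not detected on these arrays. In bulk RNA, fewer cells of a type and less RNA per cell cannot be told apart. Of 11 sympathoadrenal marker genes, 10 lay above the array median in each group, and their summed intensities were 30081 to 33474 in overexpressing arrays, 35074 to 37579 in knockdown arrays and 32444 to 37538 in wildtype arrays. Overexpressed over wildtype, Isl1 and Dbh of these markers rose, by 0.99 ± 0.21 and 0.60 ± 0.11, and Chga fell, at -0.75 ± 0.12. Summed intensities of 6 blood and immune markers were 649.7 to 751.4 in overexpressing arrays, 1117 to 1141 in knockdown arrays and 1271 to 1307 in wildtype arrays. Of these 6, 1, Cd74, lay above the array median in each group, and it held most of the difference, with 385, 345 and 389.8 in overexpressing arrays, 775, 696 and 903 in knockdown arrays and 973, 953 and 859 in wildtype arrays. The other 5 were not called in overexpressed over wildtype, and Hba-a1 went the other way, at 1.19 ± 0.36 (adjusted p = 0.064). The sums of 7 fibroblast markers were 474.0 to 602.6 in overexpressing arrays, 613.7 to 764.3 in knockdown arrays and 478.2 to 605.4 in wildtype arrays. Sums of 4 Schwann cell and glia markers (348.1 to 564.1 over all arrays) and 4 epithelial markers (205.7 to 396.2) overlapped between groups, and 1 gene of each list lay above the array median. The part of these markers in the results was not tested.

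Pre-ribosome factors were higher in cells overexpressing Tcof1. Of the 50 measured, 18 rose against wildtype, 0 fell and 32 were not called. The 18 make up 36% of the measured factors, while 5.04% of all 12393 genes were called higher by the same rule and 6.21% lower. Because 48 of the 50 factors lay above the median brightness of the array, they were also read against the 6977 genes above that median, of which 8.31% were called higher. The changes were moderate. The median factor had a log2 fold change of 0.34, or 1.26-fold, with a range from -0.30 to 0.88, against a median of -0.03 over all genes and -0.01 over the genes above the median brightness. A positive difference was seen for 44 factors and a negative one for 6. An unadjusted p under 0.05 was reached by 31 factors, or 62%, 30 higher and 1 lower. Over all genes the share was 25.4%, with 1478 higher and 1673 lower. Of the 6977 genes above the median brightness 2656 reached it, 1304 higher and 1352 lower.

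**Figure D1:**
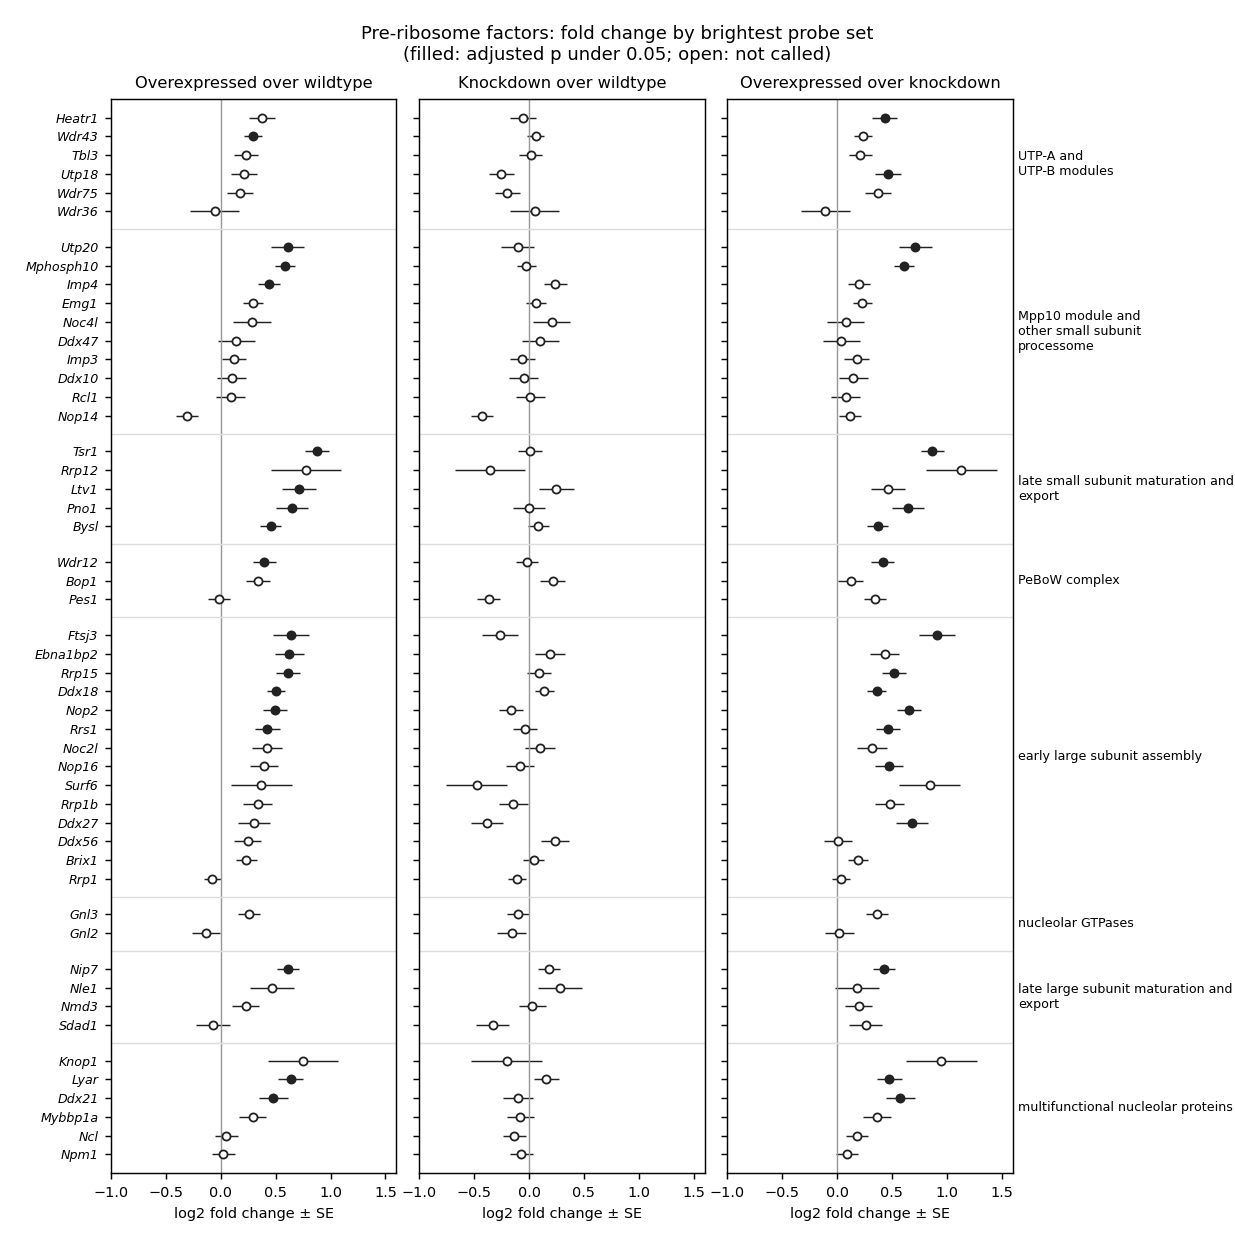
Log2 fold change with its SE for each of the 50 measured pre-ribosome factors, by brightest probe set, for overexpressing cells over wildtype cells (left), knockdown cells over wildtype cells (middle) and overexpressing cells over knockdown cells (right). Factors run down the page by role, and filled points passed an adjusted p of 0.05. Filled points lie only to the right of 0 in the outer panels, 18 in each, and the middle panel has none.

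The shift was present on each overexpressing array. Taking each factor's difference from its own mean over the 9 arrays, the median factor stood at 0.25, 0.22 and 0.22 on overexpressing arrays A, B and C, at -0.08, -0.17 and -0.12 on knockdown arrays A, B and C, and at -0.10, -0.12 and -0.06 on wildtype arrays A, B and C. The 3 overexpressing arrays were therefore the highest 3 of the 9, and the knockdown and wildtype arrays overlapped. For 31 factors, or 62%, all 3 overexpressing arrays lay above all 3 wildtype arrays, against 13.8% of all genes and 20.5% of those above the median brightness. For 1 factor, Nop14, or 2%, all 3 lay below, against 16.1% of all genes and 21.4% of those above the median brightness. Overexpressing arrays A, B and C held the highest of the 9 values for 17, 13 and 9 factors.

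**Figure D2:**
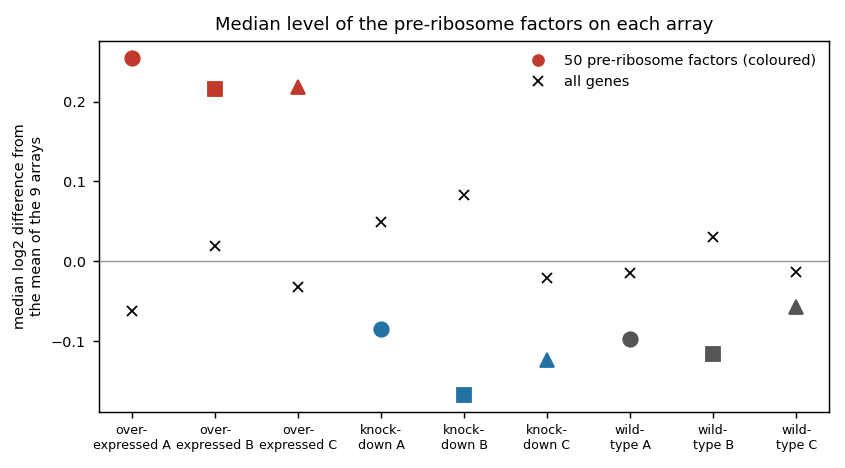
Median log2 difference of the 50 pre-ribosome factors (coloured symbols) and of all genes (crosses) from each gene's mean over the 9 arrays, for overexpressing, knockdown and wildtype arrays A, B and C. The factors lie at 0.22 to 0.25 on the overexpressing arrays and below 0 on the other 6 arrays.

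The number of calls moved with single arrays and with the fit. Without overexpressing array A, B or C or without wildtype array A, 10 factors were called higher, and without wildtype array B, 8. Without wildtype array C it was 16, and without knockdown arrays A, B and C 16, 18 and 14. Without the mean-variance trend in the fit the number was 7. Tsr1, Rrp15 and Lyar were called in every alternative that gave them a value, and no called factor turned sign in any. Of the other 15, 8 were called in fewer than 15 of 20 alternatives. These were Utp20, Ebna1bp2 and Ftsj3 (14 each), Imp4 (13), Wdr12 and Rrs1 (11 each), Ddx21 (9) and Wdr43 (7).

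The promoters of several called factors share the letters of an E-box, CACGTG, the binding motif of MYC and related transcription factors. RefSeq windows on build GRCm38.p6, from 250 bases before to 50 after each transcription start, were found for 49 of the 57 listed genes, as 54 windows. The E-box letters were in 13 of the 54 windows (24.1%), against 9.11% of 12560 windows of genes on the array and 7.15% of all 32851 windows. In 9 of the 13 genes the letters began after the start, which holds for 16.7% of the factors' windows and 1.32% of windows of genes on the array. Of the 13 factors with the letters, 7 rose in overexpressing cells, namely Imp4, Ltv1, Nop2, Pno1, Tsr1, Utp20 and Wdr43, and 6 were not called. Pes1 and Sdad1 are shown beside the 7 as examples of factors that have the letters just after the start and were not called on their brightest probe set. The sequences run 5′ to 3′ on the gene's strand, and capitals mark the E-box.
Tsr1: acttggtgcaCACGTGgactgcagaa
Wdr43: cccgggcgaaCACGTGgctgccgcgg
Ltv1: cctgtggaccCACGTGtggagctgcc
Pno1: tacaaccacgCACGTGttcctct
Utp20: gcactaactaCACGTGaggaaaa
Nop2: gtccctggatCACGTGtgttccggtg
Imp4: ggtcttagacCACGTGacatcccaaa
Pes1: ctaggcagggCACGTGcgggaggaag
Sdad1: cggcgtgtccCACGTGccgtttccgg
In the order printed, these windows are chr11:74898094-74898119 on the plus strand, chr17:71616222-71616247 on the plus strand, chr10:13193094-13193119 on the minus strand, chr11:17211540-17211562 on the minus strand, chr10:88826765-88826787 on the minus strand, chr6:125131813-125131838 on the plus strand, chr1:34439698-34439723 on the plus strand, chr11:3963967-3963992 on the plus strand and chr5:92309988-92310013 on the minus strand. In Tsr1, Wdr43, Ltv1, Pno1 and Utp20 the letters start 25, 18, 29, 38 and 38 bases after the transcription start. In Nop2 and Imp4 they start 60 and 121 bases before it. The capitals therefore fall inside the first transcribed bases of 5 of the 7 called factors with an E-box.

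The 250 bases upstream of Nop2 (chr6:125131633-125131882, plus strand) and of Imp4 (chr1:34439579-34439828, plus strand) are given whole because their E-boxes lie before the start. Capitals again mark CACGTG.
Nop2: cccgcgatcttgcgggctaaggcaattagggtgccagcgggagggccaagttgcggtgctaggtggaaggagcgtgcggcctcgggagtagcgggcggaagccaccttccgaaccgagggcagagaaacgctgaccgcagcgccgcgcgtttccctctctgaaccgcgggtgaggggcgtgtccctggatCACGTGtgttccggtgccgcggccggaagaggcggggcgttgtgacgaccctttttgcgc
Imp4: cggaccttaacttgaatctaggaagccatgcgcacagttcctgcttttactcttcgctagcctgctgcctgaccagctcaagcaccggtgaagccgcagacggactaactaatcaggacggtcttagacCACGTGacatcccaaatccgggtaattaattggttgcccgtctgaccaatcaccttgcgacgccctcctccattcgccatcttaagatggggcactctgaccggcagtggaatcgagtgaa
Neither stretch holds TATAAA. Across the 54 windows of the factors TATAAA was present in 3.7%, against 9.8% of windows of genes on the array. The letters CCGGAAG, a form of the ETS motif, were in 35.2% of the factors' windows and 14.0% of windows of genes on the array. Like the E-box letters, they began after the start in 16.7% of the factors' windows, against 3.52% of windows of genes on the array. The E2F forms TTTGGCGC and TTTCCCGC were in 1.85% and 0% of the factors' windows, against 0.82% and 1.68%. All 5 motifs were searched on both strands, and no one of them contains another. A match is a description of letters, and binding was not measured.

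**Figure D3:**
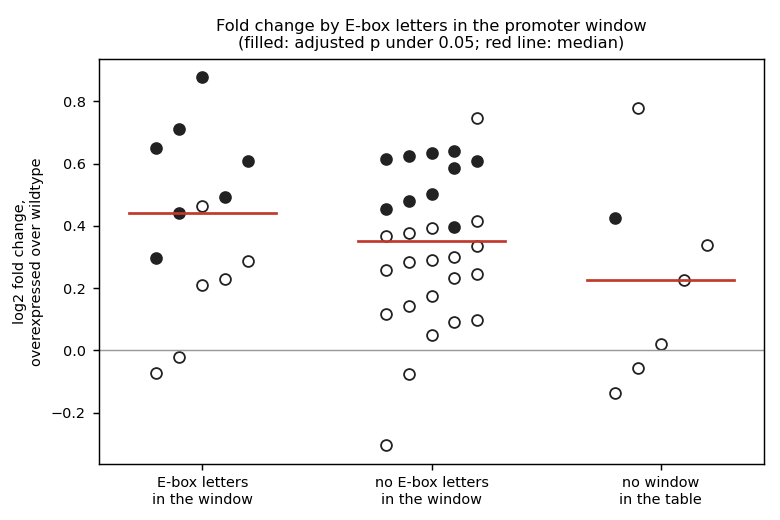
Log2 fold change of overexpressed over wildtype for each measured factor (points, filled where called) by whether its promoter window holds the E-box letters, does not, or is not in the table, with the median as a red line. The medians are 0.44 for 13 factors with the letters, 0.35 for 30 without and 0.23 for 7 with no window.

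Fold changes overlapped widely between factors with and without these letters. The 13 with an E-box ranged from -0.07 to 0.88, with 7 called higher, and the 30 without ranged from -0.30 to 0.75, with 10 called higher. The difference between these sets of factors was not tested.

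The late small subunit factors made up the group with the highest median, 0.71 on the log2 scale or 1.64-fold. Of 5 measured, 4 rose in overexpressing cells and all 5 had overexpressing arrays wholly above wildtype arrays. Tsr1, a GTPase-like protein that sits on late small subunit precursors, had 744, 751 and 824 in overexpressing arrays, 393, 432 and 424 in knockdown arrays and 378, 425 and 439 in wildtype arrays. The overexpressing arrays stood clear of all other arrays, which overlapped each other. Tsr1 averaged 773 ± 44.5 in overexpressing arrays and 414 ± 31.9 in wildtype arrays (SD, n = 3 each) and rose by 0.88 ± 0.11 (adjusted p = 0.00116), or 1.84-fold, the largest change of the 50 factors.

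Ltv1, which leaves the small subunit precursor late and takes part in its export, had 1505, 1455 and 1679 in overexpressing arrays, 1203, 1020.5 and 1130.4 in knockdown arrays and 705, 1007 and 1153 in wildtype arrays. Its overexpressing arrays were above all others, and wildtype array A was the lowest of the 9. The rise was 0.71 ± 0.16 (adjusted p = 0.0175). Pno1, the partner of the endonuclease Nob1 in the last cut of the small ribosomal RNA, had 1679, 1921 and 1475 in overexpressing arrays, 1168, 869.9 and 1195 in knockdown arrays and 946, 1064 and 1205 in wildtype arrays, and overexpressing arrays did not overlap the others. Pno1 rose by 0.65 ± 0.15 (adjusted p = 0.0189). Bysl encodes bystin, needed for the processing and export of the small subunit. Its brightest probe set had 1631, 1638 and 1862 in overexpressing arrays, 1416, 1213 and 1332 in knockdown arrays and 1177, 1330.1 and 1222 in wildtype arrays, with overexpressing arrays above the rest, and rose by 0.45 ± 0.10 (adjusted p = 0.0137). The other Bysl probe set was called as well, at 0.58 ± 0.12 (adjusted p = 0.0112). Rrp12, an export factor of the HEAT-repeat kind, was not called at 0.78 ± 0.32 (adjusted p = 0.17), although its values of 238, 231 and 222 in overexpressing arrays, 50.6, 154 and 109 in knockdown arrays and 93.7, 144 and 152 in wildtype arrays did not overlap between overexpressing and wildtype arrays. Rrp12 was dim, below the median brightness of all probe sets, and its knockdown arrays spread over a 3-fold range.

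**Figure D4:**
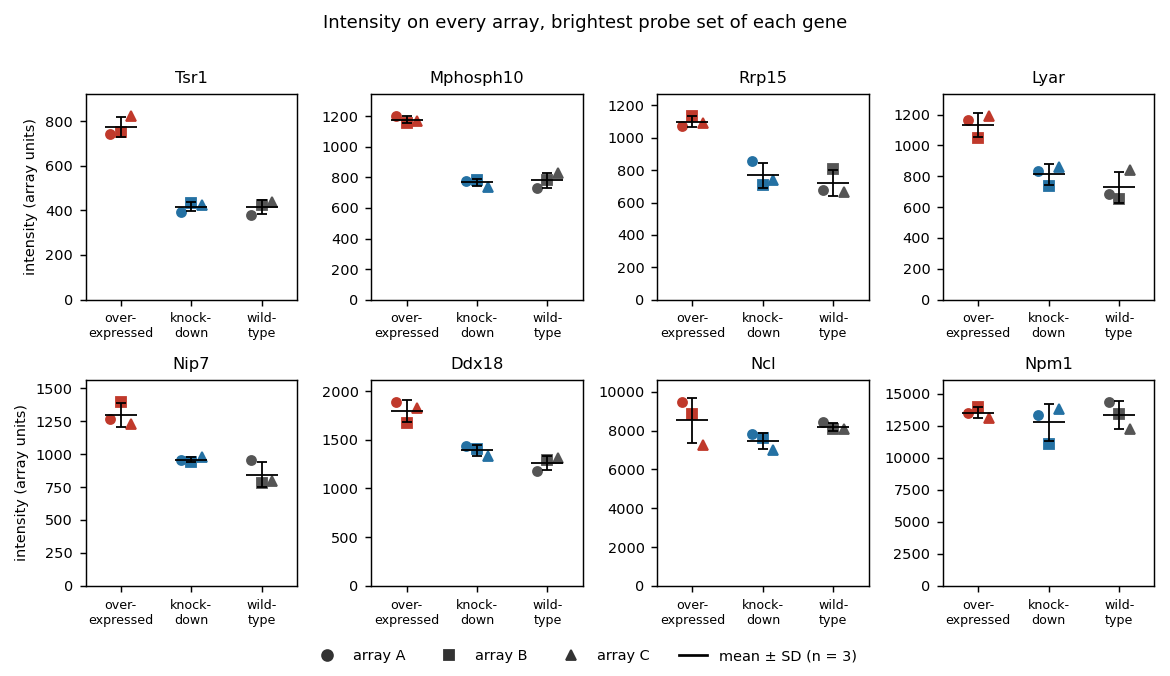
Intensity in array units on each array for 8 pre-ribosome factors, in overexpressing, knockdown and wildtype groups, with bars for the mean and SD of 3 arrays and symbols for arrays A, B and C. Tsr1, Mphosph10, Rrp15, Lyar, Nip7 and Ddx18 have all 3 overexpressing arrays above the other 6. For Ncl and Npm1 the overexpressing arrays overlap both other groups.

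In the Mpp10 module and the rest of the small subunit processome, 3 of 10 factors rose and the median was 0.21. Mphosph10, the scaffold that joins Imp3 and Imp4 to U3, had 1205, 1158 and 1171 in overexpressing arrays, 775, 786 and 739 in knockdown arrays and 730, 784 and 829.8 in wildtype arrays. Its overexpressing arrays lay above the other 6 by a wide margin, and it rose by 0.58 ± 0.09 (adjusted p = 0.00266). Imp4, which binds the U3 RNA, had 1419, 1380 and 1376 in overexpressing arrays, 1172, 1194 and 1263 in knockdown arrays and 895, 1018 and 1168 in wildtype arrays. The 3 groups followed each other without overlap, and Imp4 rose by 0.44 ± 0.10 (adjusted p = 0.0211) in overexpressing cells. Imp3, the third protein of the module, was at 0.12 ± 0.11 (adjusted p = 0.622) and overlapped between groups. Utp20, a large HEAT-repeat protein, had 822, 835 and 919 in overexpressing arrays, 486, 616 and 464 in knockdown arrays and 468, 542 and 682 in wildtype arrays. It rose by 0.61 ± 0.15 (adjusted p = 0.0295), with overexpressing arrays above all others.

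Nop14, which pairs with Noc4l in the processome, had the lowest fold change of the 50 factors. Its values were 606, 651 and 630.4 in overexpressing arrays, 607, 525 and 604 in knockdown arrays and 742, 819.9 and 782 in wildtype arrays. Both overexpressing and knockdown arrays lay wholly below the wildtype arrays, at -0.30 ± 0.10 (adjusted p = 0.0856) and -0.43 ± 0.10 (adjusted p = 0.173), and neither difference passed the test. Noc4l itself was at 0.28 ± 0.17 (adjusted p = 0.376). Emg1, a methyltransferase of the small ribosomal RNA, was at 0.29 ± 0.09 (adjusted p = 0.0677), with overexpressing arrays at 3549, 3539 and 3739 above wildtype arrays at 3231, 2960.2 and 2670.5. The cyclase-like protein Rcl1 and the RNA helicases Ddx10 and Ddx47 were not called, with fold changes of 0.09 to 0.14.

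Of the UTP-A and UTP-B modules, which bind the precursor RNA at the start of assembly, 1 of 6 measured factors rose and the median was 0.22. Wdr43, a UTP-A protein, had 1543, 1718 and 1771 in overexpressing arrays, 1448, 1408 and 1399.9 in knockdown arrays and 1343, 1342 and 1397 in wildtype arrays. Overexpressing arrays were above both other groups, and the rise was small, at 0.30 ± 0.08 (adjusted p = 0.044), and was called in 7 of 20 alternatives. A dimmer Wdr43 probe set had 1048, 842 and 853 in overexpressing arrays, 557, 484 and 488 in knockdown arrays and 441, 579 and 635 in wildtype arrays and rose by 0.72 ± 0.15 (adjusted p = 0.012), so both probe sets were called. Heatr1, also of UTP-A, had 805, 744 and 728 in overexpressing arrays, 634, 561 and 488 in knockdown arrays and 533, 607 and 602 in wildtype arrays and did not pass, at 0.38 ± 0.12 (adjusted p = 0.0699). The groups did not overlap between overexpressing and wildtype arrays. Tbl3 of UTP-B was at 0.23 ± 0.11 (adjusted p = 0.248), with 925, 812 and 825 in overexpressing arrays and 663, 713 and 811 in wildtype arrays, which narrowly did not overlap. Wdr36, also of UTP-B, had the lowest change of the modules on its brightest probe set, at -0.06 ± 0.22 (adjusted p = 0.933). All groups overlapped there, at 386, 324 and 532 in overexpressing arrays, 330.3, 618 and 411 in knockdown arrays and 408, 421 and 439.5 in wildtype arrays. The other Wdr36 probe set, nearly as bright, was at 0.37 ± 0.16 (adjusted p = 0.202). It was not called either, but its overexpressing arrays lay above its wildtype arrays. Wdr75 and Utp18 were not called, at 0.18 ± 0.12 and 0.21 ± 0.12.

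The early large subunit factors formed the biggest group, and 6 of 14 rose, with a median of 0.41. Ddx18, an RNA helicase, had 1889, 1671 and 1824 in overexpressing arrays, 1440, 1403 and 1332 in knockdown arrays and 1177, 1292 and 1317 in wildtype arrays. The 3 groups did not overlap, in the order overexpressing, knockdown and wildtype from high to low, and Ddx18 rose by 0.50 ± 0.09 (adjusted p = 0.00514). Rrp15 had 1073, 1137 and 1090.3 in overexpressing arrays, 855, 710.1 and 736 in knockdown arrays and 680.4, 810.3 and 665 in wildtype arrays and rose by 0.61 ± 0.11 (adjusted p = 0.00651), with overexpressing arrays above all others. Ebna1bp2, a nucleolar protein of early large subunit precursors, had 1385, 1405 and 1385 in overexpressing arrays, 943, 967 and 1188 in knockdown arrays and 772, 849 and 1101 in wildtype arrays. Its overexpressing arrays were close together and above the rest, and it rose by 0.62 ± 0.13 (adjusted p = 0.0158).

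The other 3 called early large subunit factors were Nop2, Ftsj3 and Rrs1. Nop2, a cytosine methyltransferase of the large ribosomal RNA, had 1206, 1249 and 1421 in overexpressing arrays, 832, 876 and 739 in knockdown arrays and 984, 827 and 931 in wildtype arrays and rose by 0.49 ± 0.11 (adjusted p = 0.017). Ftsj3, a methyltransferase-like factor, had 469, 432 and 339.6 in overexpressing arrays, 204, 186 and 248 in knockdown arrays and 260.5, 248 and 264 in wildtype arrays and rose by 0.64 ± 0.16 (adjusted p = 0.0339). Rrs1, which takes part in placing the smallest ribosomal RNA particle in the large subunit, had 1426, 1565 and 1240 in overexpressing arrays, 1007, 1047 and 996 in knockdown arrays and 960.1, 1003 and 1175 in wildtype arrays and rose by 0.42 ± 0.11 (adjusted p = 0.0345). In each of the 3 the overexpressing arrays lay above all other arrays. Rrp1 was lowest in this group, at -0.08 ± 0.08 (adjusted p = 0.664), with 3684, 3796 and 3944 in overexpressing arrays, 3581, 3892 and 3678 in knockdown arrays and 4367, 3835 and 3869 in wildtype arrays, and the groups overlapped. The other 7 were not called, at 0.23 to 0.42. Among them were Nop16 and Noc2l, whose overexpressing arrays lay wholly above wildtype arrays, and Surf6, whose wildtype arrays at 574, 341 and 224 spanned the range of its overexpressing arrays at 536, 492 and 370.3.

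In the PeBoW complex, 1 of 3 factors rose. Wdr12 had 906, 987 and 873 in overexpressing arrays, 624, 758 and 685 in knockdown arrays and 727, 689 and 673 in wildtype arrays, with overexpressing arrays above all others, and rose by 0.40 ± 0.10 (adjusted p = 0.035). Bop1 was at 0.34 ± 0.11 (adjusted p = 0.0898), with 3081, 3150.4 and 3356 in overexpressing arrays, 2872, 3182 and 2761 in knockdown arrays and 2106, 2715 and 2813 in wildtype arrays. Its overexpressing arrays lay above the wildtype arrays and overlapped the knockdown arrays. Pes1 is given here by its brightest probe set. It had 1029.6, 996 and 1005 in overexpressing arrays, 862, 689.8 and 829 in knockdown arrays and 1016, 1074 and 987 in wildtype arrays. Overexpressed over wildtype it was at -0.02 ± 0.10 (adjusted p = 0.949) with overlapping arrays, and the knockdown arrays lay below both other groups. The 3 subunits of this complex thus had fold changes of 0.40, 0.34 and -0.02, and the differences among them were not tested.

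Of the 2 nucleolar GTPases measured, neither was called. Gnl3, which encodes nucleostemin, had 2954, 3784 and 2979 in overexpressing arrays, 2409, 2596 and 2503 in knockdown arrays and 2648, 2815 and 2606 in wildtype arrays and was at 0.26 ± 0.10 (adjusted p = 0.152), with overexpressing arrays above the others. Gnl2 was at -0.14 ± 0.13 (adjusted p = 0.632) with 395, 419.5 and 425 in overexpressing arrays and 455, 518 and 400 in wildtype arrays, which overlapped.

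Among 4 late large subunit factors, Nip7 rose and the other 3 were not called. Nip7, which binds large subunit precursors, had 1264, 1396 and 1227 in overexpressing arrays, 957, 937 and 976 in knockdown arrays and 954, 782 and 795 in wildtype arrays, with overexpressing arrays above all others, and rose by 0.61 ± 0.10 (adjusted p = 0.00415). Nmd3, the adaptor that carries the large subunit out of the nucleus, was at 0.23 ± 0.12 (adjusted p = 0.319). Nle1, the mouse Notchless protein, was at 0.46 ± 0.20 (adjusted p = 0.192), and its values of 442, 736 and 709 in overexpressing arrays and 456, 479 and 391 in wildtype arrays overlapped because overexpressing array A was low. Sdad1 was at -0.07 ± 0.15 (adjusted p = 0.86) with overlapping groups.

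The nucleolar proteins with several roles gave 2 rises among 6. Lyar had 1165, 1045 and 1193 in overexpressing arrays, 837, 737 and 861 in knockdown arrays and 688, 656 and 840.3 in wildtype arrays and rose by 0.63 ± 0.12 (adjusted p = 0.00726), with overexpressing arrays above all others. Ddx21, an RNA helicase of the nucleolus, had 1759.5, 1934 and 1771 in overexpressing arrays, 1458, 1006 and 1219 in knockdown arrays and 1162, 1282 and 1480.4 in wildtype arrays. Overexpressing arrays did not overlap the rest, and the call was narrow, at 0.48 ± 0.14 (adjusted p = 0.0496). Npm1, which encodes nucleophosmin, had 13456, 13956 and 13137 in overexpressing arrays, 13346, 11090.2 and 13829 in knockdown arrays and 14362, 13445 and 12228 in wildtype arrays and a difference of 0.02 ± 0.10 (adjusted p = 0.949). Ncl, which encodes nucleolin, had 9477, 8846 and 7254 in overexpressing arrays, 7809, 7614 and 7004 in knockdown arrays and 8437, 8054 and 8079.9 in wildtype arrays and a difference of 0.05 ± 0.10 (adjusted p = 0.86). In Npm1 and Ncl the overexpressing arrays overlapped both other groups, while the knockdown arrays of Ncl lay below its wildtype arrays. Npm1 and Ncl were the brightest factors in wildtype arrays, followed by Rrp1, Mybbp1a and Emg1. Intensity ranks probe signals and not transcript numbers, and the many processed copies of Npm1 in the genome make its probe sets uncertain. Mybbp1a was at 0.29 ± 0.13 (adjusted p = 0.198), with 3678, 3860.1 and 3793 in overexpressing arrays and 2964, 2997 and 3319.6 in wildtype arrays. The dimmest in wildtype arrays were Rrp12, Knop1, Ftsj3, Surf6 and Sdad1.

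Probe sets of the same gene did not always read alike. Of the 50 genes, 23 had 1 probe set and 27 had several, and in 18 of the 27 all probe sets had the same sign. Over all 84 probe sets, 26 were called higher and 0 lower in overexpressing cells, where 4.52% of all probe sets were called higher. Beyond the 18 genes called on their brightest probe set, 5 were called only on a dimmer one, namely Pes1, Rrp1b, Brix1, Ncl and Knop1, which makes 23 genes with any called probe set. These 5 were singled out after their values were seen. A gene with several probe sets has more chances of a call. The share of all genes with any called probe set was not counted, so the 23 have no background here.

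Ncl was read by 4 probe sets. The brightest and the next were at 0.05 ± 0.10 and 0.05 ± 0.14, while the third had 530.2, 486 and 410.3 in overexpressing arrays, 193, 227 and 215 in knockdown arrays and 176, 195 and 273 in wildtype arrays and rose by 1.11 ± 0.18 (adjusted p = 0.0041), with overexpressing arrays above all others. The fourth was at 0.51 ± 0.35 (adjusted p = 0.456). For Pes1 the dimmer probe set had 453, 431 and 395 in overexpressing arrays, 213, 231 and 210 in knockdown arrays and 88.7, 209 and 275 in wildtype arrays and rose by 1.22 ± 0.30 (adjusted p = 0.0292), against -0.02 ± 0.10 on the brighter. Its wildtype arrays spread over a 3-fold range, with array A the lowest. Rrp1b, a paralog of Rrp1, was at 0.33 ± 0.13 (adjusted p = 0.152) on its brightest probe set, while the third had 934, 940.4 and 928 in overexpressing arrays, 560.5, 446 and 419.8 in knockdown arrays and 455, 498 and 494 in wildtype arrays and rose by 0.93 ± 0.12 (adjusted p = 0.00132). On the third probe set no overexpressing array overlapped any other array. Knop1 was at 0.75 ± 0.32 (adjusted p = 0.192) on the brighter and 1.63 ± 0.36 (adjusted p = 0.0189) on the dimmer probe set, whose wildtype values of 75.2, 25.7 and 72 lay far below the array median. Brix1, a factor of the large subunit, gave 0.23 ± 0.09 (adjusted p = 0.163) and 0.46 ± 0.12 (adjusted p = 0.0435).

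**Figure D5:**
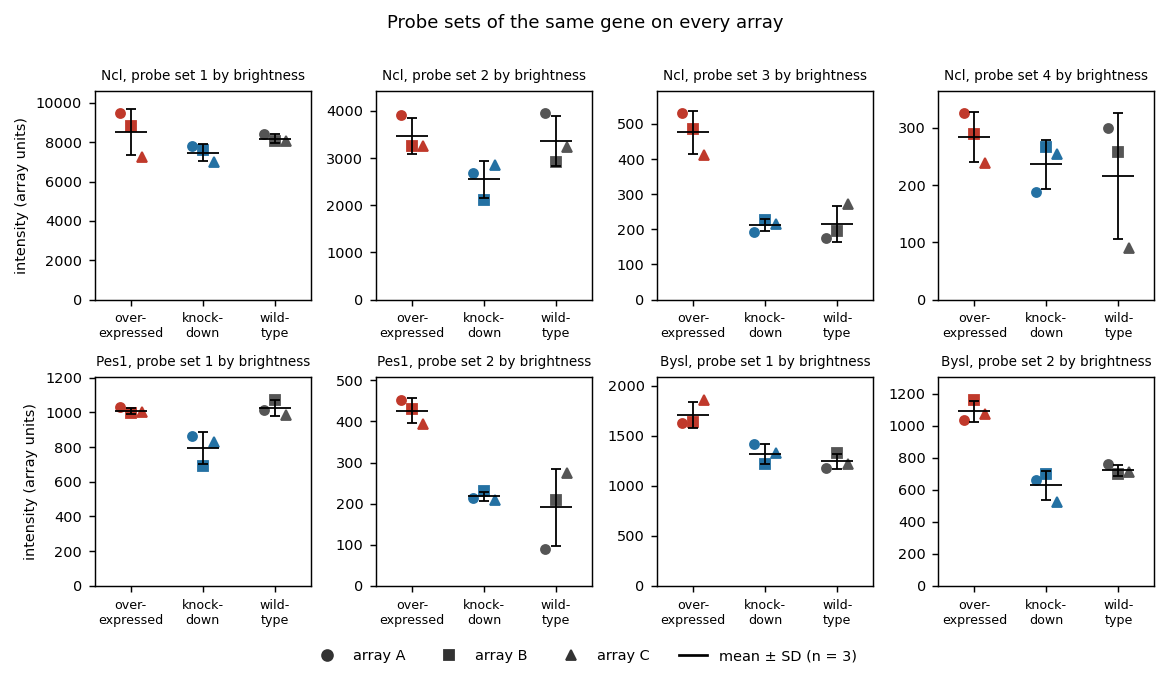
Intensity in array units on each array for the 4 probe sets of Ncl and the 2 each of Pes1 and Bysl, in overexpressing, knockdown and wildtype groups, with mean and SD bars of 3 arrays. Overexpressing arrays stand apart on the third Ncl probe set, on the dimmer Pes1 probe set and on both Bysl probe sets, and overlap wildtype arrays on the brightest Ncl and Pes1 probe sets.

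Other called genes had a probe set that went the other way without passing. Ebna1bp2 had a dimmer one at -0.46 ± 0.38 (adjusted p = 0.552) and Nip7 a dimmer one at -0.28 ± 0.33 (adjusted p = 0.715). On the dimmer Ebna1bp2 probe set all overexpressing arrays, at 135.8, 166.5 and 166.7, lay below all wildtype arrays. As the mean of all probe sets of a gene, neither gene was called by limma. Ebna1bp2 was then at 0.08 (adjusted p = 0.872) and Nip7 at 0.17 (adjusted p = 0.709). Which probes of a set match which transcript was not examined here. The dimmer probe sets of Ebna1bp2 and Nip7 read 184, 222 and 259 and 214, 163 and 114 in wildtype arrays, near the median of all probe sets.

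In cells with Tcof1 knocked down, 0 of 50 pre-ribosome factors were called against wildtype by limma, as were only 3 of all 22626 probe sets (0.0133%). At an unadjusted p under 0.05 there were 4 factors, Imp4 higher and Nop14, Pes1 and Ddx27 lower. These are fewer, as a share, than the 11.8% of all genes under the same limit, and nothing is read from them. The smallest adjusted p was 0.173, for Nop14. No alternative way of processing gave a call of any of the 50 in this comparison. The median log2 fold change was -0.03, with 23 factors positive and 27 negative and a range from -0.48 to 0.28. The median over all genes was 0.04. For 3 factors, Wdr43, Imp4 and Ddx18, all knockdown arrays lay above all wildtype arrays, which is 6% against 9.68% of all genes. For 7 factors, or 14%, they lay below, against 6.69% of all genes. These were Utp18, Nop14, Pes1, Ftsj3, Ddx27, Gnl3 and Ncl. Of the genes above the median brightness, 10.9% lay above and 9.3% below.

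The values of these factors in knockdown cells are given as a description. Pes1 had 862, 689.8 and 829 in knockdown arrays and 1016, 1074 and 987 in wildtype arrays, a difference of -0.37 ± 0.10 (adjusted p = 0.24) without overlap. Ddx27, an RNA helicase of large subunit assembly, had 389.5, 332 and 377 in knockdown arrays and 571, 409 and 475 in wildtype arrays, also without overlap, at -0.38 ± 0.15 (adjusted p = 0.379). Imp4 had 1172, 1194 and 1263 in knockdown arrays and 895, 1018 and 1168 in wildtype arrays, at 0.24 ± 0.10 (adjusted p = 0.422). Surf6 had the lowest fold change, -0.48 ± 0.28 (adjusted p = 0.569), from wildtype values that spread from 224 to 574. Tsr1, the most changed factor in overexpressing cells, was at 0.01 ± 0.11 (adjusted p = 0.983) here.

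Set directly against knockdown cells, overexpressing cells again had 18 of 50 factors higher and 0 lower. The background was 3.56% of all genes called higher, 6.01% of the genes above the median brightness, and 5.25% of all genes called lower. This comparison shares its overexpressing arrays with the one against wildtype, so the counts are not independent. The median log2 fold change was 0.36, or 1.29-fold, against -0.08 over all genes, and 49 of the 50 differences were positive. For 31 factors, or 62%, all overexpressing arrays lay above all knockdown arrays, against 12.7% of all genes, and for 0 they lay below, against 17.7% of all genes. Of the genes above the median brightness, 19.5% lay above and 21.6% below. Over all 84 probe sets 27 were called higher, where 3.43% of all probe sets were.

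Of the 18, 14 were also called against wildtype. Heatr1, Utp18, Nop16 and Ddx27 were called only against knockdown cells, at 0.43 ± 0.12 (adjusted p = 0.0499), 0.46 ± 0.12 (adjusted p = 0.0369), 0.48 ± 0.13 (adjusted p = 0.0483) and 0.68 ± 0.15 (adjusted p = 0.0198). These calls held in 6, 11, 7 and 15 of 20 alternatives, and 12 of the 18 calls of this comparison held in fewer than 15. On their brightest probe sets, Wdr43, Imp4, Ltv1 and Ebna1bp2 were called only against wildtype cells. Against knockdown cells these probe sets stood at 0.24 ± 0.08, 0.20 ± 0.10, 0.46 ± 0.16 and 0.43 ± 0.13. The dimmer Wdr43 probe set was called against knockdown cells too, at 0.82 ± 0.15 (adjusted p = 0.00947). The largest called differences were Ftsj3 at 0.91 ± 0.16 (adjusted p = 0.0097), Tsr1 at 0.87 ± 0.11 (adjusted p = 0.0017) and Utp20 at 0.71 ± 0.15 (adjusted p = 0.0194). Nop2 was at 0.65 ± 0.11 (adjusted p = 0.00648) and Mphosph10 at 0.61 ± 0.09 (adjusted p = 0.00296). Rrp12 had the highest difference of all, 1.13 ± 0.32 (adjusted p = 0.057), and was not called.

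By role, the called factors were 3 of 5 late small subunit factors, 7 of 14 early large subunit factors, 2 of 10 in the Mpp10 group, 2 of 6 UTP-A and UTP-B proteins, 1 of 3 in PeBoW, 1 of 4 late large subunit factors and 2 of 6 multifunctional proteins. Among dimmer probe sets of the named genes, a Ddx47 probe set with 38.1, 36.3 and 34.4 in overexpressing arrays and 3.5, 5.6 and 21 in knockdown arrays was called at 1.06 ± 0.27 (adjusted p = 0.0371), far below the array median, while the brightest Ddx47 probe set was at 0.04 ± 0.17. Dimmer probe sets of Heatr1, Mphosph10 and Ddx18 were slightly negative, at -0.03 ± 0.25, -0.17 ± 0.23 and -0.02 ± 0.51. The count was 4, 6 and 7 in place of 18 without overexpressing arrays A, B and C, 10, 7 and 7 without knockdown arrays A, B and C, 12 without wildtype array B, and 4 without the mean-variance trend.

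Other genes of ribosome production were counted the same way, by brightest probe set, from lists of the wider pathway that do not hold the 50 factors. In overexpressed over wildtype, 5.04% of all genes were called higher and 6.21% lower. Of the genes above the median brightness, 8.31% were called higher. Of 59 further pre-ribosome factors, 11 rose and 0 fell in overexpressing cells, with a median of 0.17. Those with the smallest p were Rpf2, a partner of Rrs1, at 0.89 ± 0.13 (adjusted p = 0.00266), Mak16 at 0.56 ± 0.09 (adjusted p = 0.00367), and Eif6, which keeps the large subunit from joining too early, at 0.52 ± 0.08 (adjusted p = 0.00284). The proteins of the box C/D and H/ACA particles, which guide modification of ribosomal RNA, had 8 of 11 higher and 0 lower, with a median of 0.49. Nop56 had 4312, 3758 and 4099 in overexpressing arrays, 1856, 1597 and 2013 in knockdown arrays and 1554, 1594 and 1838 in wildtype arrays and rose by 1.28 ± 0.11 (adjusted p = 0.000206). Nop58, its partner in the box C/D particle, rose by 0.81 ± 0.12 (adjusted p = 0.003), and Rrp9, a U3 protein, by 1.91 ± 0.33 (adjusted p = 0.0051). In all 3 the overexpressing arrays lay above all wildtype arrays.

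The RNA polymerase I machinery had 2 of 15 higher, Nolc1 at 0.63 ± 0.12 (adjusted p = 0.00871) and Polr1b at 0.53 ± 0.12 (adjusted p = 0.0177), with 0 lower and a median of 0.29. These 2 are 13.3% of a short list, against 8.31% of the genes above the median brightness. The RNA exosome, which trims precursor RNA, had 4 of 12 higher, 0 lower and a median of 0.40. Among 43 cytosolic ribosomal proteins, 0 were called higher and 1 lower, Rps25 at -0.29 ± 0.08 (adjusted p = 0.0401), with a median of -0.04 that turned to 0.02 after quantile normalization and, leaving out wildtype array A, to 0.01. These 43 were the measured part of 80 listed. Their median wildtype intensity was 17510, against 842.4 for the 50 factors. Whether changes are read as well at that brightness was not tested. In knockdown cells 0 genes of any of these lists were called, and the medians were -0.05 for further pre-ribosome factors, 0.13 for box C/D and H/ACA proteins, -0.17 for the polymerase I machinery, 0.13 for the exosome and -0.0036 for ribosomal proteins. For 14 of the 59 further pre-ribosome factors (23.7%) all knockdown arrays lay below all wildtype arrays, against 6.69% of all genes. For 2 (3.39%) they lay above, against 9.68%. Of the genes above the median brightness, 9.3% lay below and 10.9% above.

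Because the E-box is the motif of MYC proteins, the MYC family was read as well. Of 10 genes, 0 were called higher and 1 lower in overexpressing cells, with a median of -0.12. Over all genes 5.04% were called higher and 6.21% lower. Mxd4, a repressor of the family that dimerises with MAX, fell, at -1.34 ± 0.22 (adjusted p = 0.00398), with 106, 125 and 157 in overexpressing arrays, 216, 256 and 226 in knockdown arrays and 416, 394 and 253 in wildtype arrays. Myc and Mycn, chosen after their values were seen, were at 0.04 ± 0.10 (adjusted p = 0.879) and -0.24 ± 0.11 (adjusted p = 0.21) on overlapping groups. Against knockdown cells 2 of the 10 were called lower, where 5.25% of all genes were, namely Mycn at -0.50 ± 0.11 (adjusted p = 0.021) and Mxi1, which like Mxd4 competes with MYC for MAX, at -0.49 ± 0.11 (adjusted p = 0.0215). Myc was at 0.24 ± 0.10 (adjusted p = 0.173) there, with overexpressing arrays at 3489.9, 3173 and 3477 above knockdown arrays at 2867, 2573 and 3158.

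Genes of DNA replication moved with the pre-ribosome factors in overexpressing cells. Of Mcm2 to Mcm7, the subunits of the replicative helicase, and Pcna, the sliding clamp of the DNA polymerase, 7 of 7 rose. Their median log2 fold change was 1.37, and 5.04% of all genes were called higher. In knockdown cells 0 of the 7 were called, with a median of 0.69. All 7 differences were positive there, and 5 had an unadjusted limma p under 0.05, against 11.8% of all genes. In overexpressing over knockdown cells 4 of 7 were called higher, against 3.56% of all genes and 6.01% of those above the median brightness. The part of these replication genes in the differences of the pre-ribosome factors was not tested.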

How the data were processed

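The deposited values were linear intensity readings, 1 per probe set and array, on a 1-colour array of the Affymetrix kind. Which software, background correction or scaling the authors used, the sources used here do not state. Trimming 2% of values at each end left a mean of 500.2 on every array, so the arrays had been scaled alike. Detection calls were not used here. Of 22690 probe sets, 64 controls were left out. Among the other 22626, 20380 had 1 gene symbol in the platform annotation, 691 several and 1555 none, and 20351 matched RefSeq by gene ID. Values were converted to log2(intensity + 16). limma 3.58.1 in R 4.3.3 (lmFit, eBayes with a trend) was fitted to all 9 arrays with a mean per group, and Benjamini-Hochberg adjustment ran over 22626 probe sets within each of 3 comparisons. The fit was tested on simulated data.

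The members and the lists were chosen with earlier results of these data known. By rule, the text names in each role the 3 members with the smallest p and the member with the lowest fold change, the 5 brightest and 5 dimmest in wildtype arrays, and genes whose probe sets differ in sign with a call. Values of other members, such as Pno1, Nop2, Rrs1 and Rrp1b, were added after they were seen. The letters were not used as pairs in the main fit because the labels do not state that they are pairs. Deviations of same-letter arrays correlated at -0.05 to 0.20, above 0.1 in 5 of 9 pairs, which does not settle the matter. Counts with the letter as a block are given below. The precision is limited by 3 arrays per group. There were 20 alternatives, 9 of them leaving out 1 array.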

Additional observations from a re-analysis of the deposited data

How the results depend on the processing

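The direction of the member medians held in overexpressed over wildtype and over knockdown under all 20 alternatives, and no called factor turned sign, but counts of calls moved. In overexpressed over wildtype, 18 factors were called higher. The number was 7 without the mean-variance trend and 8 to 18 on leaving out 1 array, 1 factor (Nop14) was called lower with array weights, and the median of 0.34 was 0.37 with array weights. The 2169 probe sets called were 1339 without the trend and 1090 to 2404 without 1 array. In knockdown over wildtype the median of -0.03 was -0.0641 with a common array median. The 3 probe sets called there were 46 above the 40th percentile of brightness, 24 with array weights, 1 with quantile normalization, 1 without the trend, 1 with only the compared groups and 0 to 103 without 1 array, with 103 reached without wildtype array C. In overexpressed over knockdown, 18 factors were called higher, 4 without the trend and 4 to 22 without 1 array. The median of 0.36 was 0.43 with a common array median, 0.31 as the mean of all probe sets of a gene and 0.33 to 0.39 without 1 array. The 1713 probe sets called were 834 without the trend and 704 to 2048 without 1 array. The leave-one-out fits also rest on fewer arrays, and the cause of these shifts was not tested. With the letter as a block, 15 and 18 factors were higher against wildtype and knockdown cells, and the probe sets called were 2128 in overexpressed over wildtype, 1600 in overexpressed over knockdown and 0 in knockdown over wildtype.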
